A study of Homo sapiens with 4 samples.

Results

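The genes described here are 34 proteases and protease inhibitors of the extracellular space: 16 matrix metalloproteases (MMPs), 8 ADAMs, 5 ADAMTS proteases, the 4 tissue inhibitors of metalloproteases (TIMP1 to TIMP4) and RECK. They were chosen by gene symbol, and all 34 were found among the 19090 genes named on the arrays. Together they were read by 46 of 28264 probes. The cells were Huh7, an established human hepatocellular carcinoma line. In 1 group they stably carried a short hairpin RNA (shRNA) against ACOT12, which encodes a cytosolic enzyme that splits acetyl-CoA (shACOT12, 2 arrays). In the other they carried a scramble shRNA (2 arrays). Both groups had been selected with puromycin for 1 week and grown in serum-containing medium, and the series was made to look for genes that act below ACOT12. The sources used here do not give the sequence or number of the hairpins, so the shACOT12 group stands for an unstated number of constructs.

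MMPs are zinc-dependent enzymes that cut collagens, proteoglycans and other matrix proteins. Most are secreted as inactive precursors, while the membrane-type MMPs stay anchored at the cell surface. TIMPs block the active site of MMPs and of some ADAMs, and RECK is a membrane-anchored inhibitor. ADAMs are membrane proteases, several of which release growth factors, receptors and adhesion molecules from the cell surface. ADAMTS proteases are secreted and carry thrombospondin repeats; they cut proteoglycans and, in the case of ADAMTS13, von Willebrand factor. In the liver these enzymes and inhibitors are known for matrix turnover in fibrosis and for the invasion of liver cancer cells.

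The arrays give 1 intensity per probe, on a linear scale. Median intensities were 327 and 451 on shACOT12 replicates 1 and 2 and 377 and 395 on scramble replicates 1 and 2. The arrays also differed at the low end. Intensities under 1 were found for 264 and 3 probes on shACOT12 replicates 1 and 2. On scramble replicates 1 and 2 there were 9 and 87 such probes. A bright value depends on the probe as well as on the transcript, so levels of different genes were not ranked against each other. The probe of ACOT12 itself read 156 and 207 in shACOT12 cells, against 302 and 178 in scramble cells, which put the log2 fold change at -0.40 (SE 0.35), with an adjusted p of 1 from limma. The groups overlapped, so no knockdown was detected with this probe. It was dim, at the 34.4 percentile of all genes' levels. The confidence interval of the log2 fold change, -1.24 to 0.44, included both 0 and a fall of more than 2-fold. Whether ACOT12 mRNA was lowered therefore cannot be told from these values. All 12 measured hepatocyte and hepatoma markers had a probe at or above the median of all genes. Markers of other cell types reached it for 2 of 10 fibroblast or stellate cell genes, 0 of 6 endothelial genes and 2 of 7 leukocyte or macrophage genes. The labels name no separate cultures behind the replicates, so every p-value is set by the spread between these samples alone, and this may be technical. An exact permutation test of 2 against 2 arrays cannot give a two-sided p below 0.333, and this number of arrays limits the precision of every value.

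For none of the 34 genes was a difference between shACOT12 and scramble cells detected beyond the spread between the samples. In limma's fit over 19090 genes, 0 of 34 had an adjusted p under 0.05, against 0.00524% of all genes. At an unadjusted p under 0.05 the count was 0 as well, against 1.76%, and 0 of 34 differed at least 2-fold, against 1.59%. The adjusted p was 1 for each of the 34. Of the 34, 17 had a log2 fold change above 0 (shACOT12 minus scramble throughout), against 51.4% of all genes, and with the other scalings of the arrays the count was 18 to 20. The median log2 fold change was 0.0079, against 0.0078 over all genes, and the values ran from -0.73 for RECK to 0.67 for ADAM19. For 27 of the 34 the log2 fold change was under 0.3 in size, or 79.4% of them, against 76.2% of all genes.

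**Figure D1:**
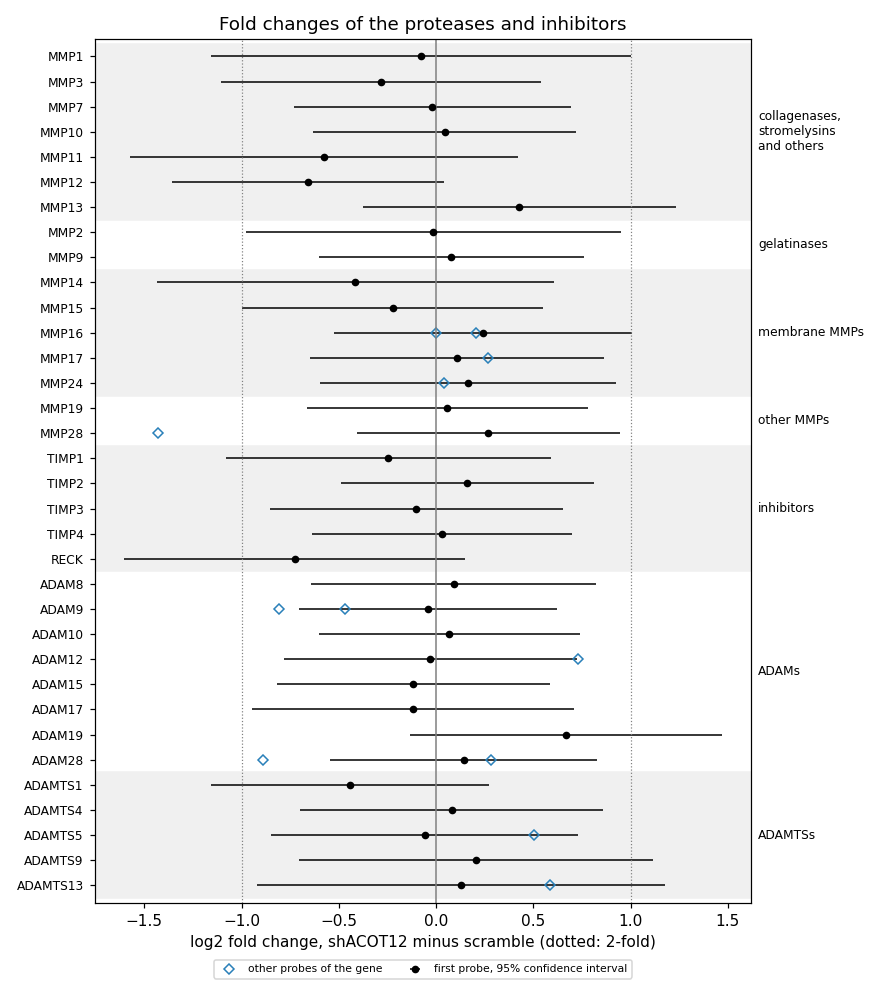
Log2 fold change of each gene, shACOT12 minus scramble, for its brightest probe with the 95% confidence interval (black) and for its other probes (blue diamonds). All 34 intervals include 0, and blue diamonds of several genes, among them ADAM9, ADAM12, ADAM28, MMP28 and ADAMTS5, lie apart from the first probe.

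The 95% confidence intervals of all 34 genes included 0. For 21 of them the interval lay within a 2-fold difference in either direction. For 5 it reached a 2-fold higher and for 8 a 2-fold lower value in shACOT12 cells. An interval extended 0.65 to 1.08 to either side on the log2 scale, so smaller differences could not be told from 0. The adjusted threshold over 19090 genes was stricter still. Among all genes at or above the median, the lowest unadjusted p from limma was 1.1e-05, with an adjusted p of 0.109. The only gene of the series past the threshold was RASD1, at -9.65. A count of 0 past the threshold therefore does not show that the 34 genes were unchanged.

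A block of MMP genes lies side by side on chromosome 11. In the order MMP7, MMP20, MMP27, MMP8, MMP10, MMP1, MMP3, MMP12 and MMP13, they are the 9 protein-coding genes of that stretch in RefSeq, and 6 of them are among the 34. The proximal promoters of MMP7, which encodes the small MMP matrilysin, and MMP10, which encodes stromelysin-2, are shown as the genes of the 34 in this block that were matched to a promoter. Beside them stand those of MMP11, MMP14 and RECK, 3 genes that read high on a single array and were picked after their values were seen. The sequences are from RefSeq (GRCh38.p14) and hold the 150 bases before the annotated start of transcription. Capitals mark the AP-1 motif TGANTCA (the same on both strands), the TATA motif TATAAA or its reverse complement TTTATA, and the GC box GGGCGG or its reverse complement CCGCCC; the marked motifs do not overlap.
MMP7, minus strand, chr11:102530748-102530897: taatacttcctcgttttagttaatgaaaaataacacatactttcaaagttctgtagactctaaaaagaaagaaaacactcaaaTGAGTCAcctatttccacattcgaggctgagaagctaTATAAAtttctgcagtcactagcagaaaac
MMP10, minus strand, chr11:102780629-102780778: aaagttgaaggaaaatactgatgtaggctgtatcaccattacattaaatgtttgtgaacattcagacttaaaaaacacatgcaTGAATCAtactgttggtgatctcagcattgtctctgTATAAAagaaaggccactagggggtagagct
MMP11, plus strand, chr22:23772699-23772848: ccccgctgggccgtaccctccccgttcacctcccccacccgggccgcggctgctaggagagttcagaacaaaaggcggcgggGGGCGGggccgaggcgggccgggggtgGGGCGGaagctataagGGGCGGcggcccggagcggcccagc
MMP14, plus strand, chr14:22836435-22836584: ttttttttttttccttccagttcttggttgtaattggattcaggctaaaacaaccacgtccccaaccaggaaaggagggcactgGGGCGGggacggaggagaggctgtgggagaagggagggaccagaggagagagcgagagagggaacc
RECK, plus strand, chr9:36036763-36036912: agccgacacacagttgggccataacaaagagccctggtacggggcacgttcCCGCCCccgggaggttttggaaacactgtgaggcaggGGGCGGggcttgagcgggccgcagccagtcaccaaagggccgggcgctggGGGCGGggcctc

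MMP7 and MMP10 both held an AP-1 motif that began 67 bases before the start, with a TATA motif that began 30 and 31 bases before it. The 250 bases before the start were 33.6% and 34.4% G or C in these genes. Of the 34 genes, 17 were matched to a promoter, and MMP7 and MMP10 were the only 2 of the 17 with either motif within 250 bases. Over the 35116 promoters of the table, 6.57% held the AP-1 motif, 10.7% the TATA motif and 1.07% both. A GC box was found in 14 of the 17, against 42.6% of all promoters. The G or C content was 73.2% for MMP11, 56.8% for MMP14 and 63.6% for RECK, with a median of 72.4% over the 17 and 58.0% over the table. A match describes letters in this window only and does not show that a factor binds there.

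All 9 genes of the chromosome 11 block were dim on these arrays, with intensities between -10.2 and 253 and probes no higher than the 34.1 percentile of all genes' levels. MMP7 read 47.4 and 66.0 in shACOT12 cells, against 64.6 and 44.0 in scramble cells. MMP10 read 186 and 229.9 in shACOT12 cells, against 201 and 193 in scramble cells. The groups overlapped for both, with log2 fold changes of -0.02 and 0.04 (SE 0.30 and 0.28). For the collagenases MMP1 and MMP13 and the stromelysin MMP3 they were -0.08, 0.43 and -0.28 (SE 0.45, 0.34 and 0.34). The value of MMP13 was 0.16 without scramble replicate 1, 0.17 without shACOT12 replicate 2 and 0.19 with cyclic loess. The sign of MMP1 and MMP7 turned under other scalings of the arrays.

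MMP12, which encodes the macrophage metalloelastase, had the lowest unadjusted p of the 34 (limma, 0.0611, adjusted p = 1). Its deposited intensities were -10.2 and 21.0 in shACOT12 cells, against 17.6 and 7.33 in scramble cells. As deposited these overlapped, with shACOT12 replicate 2 the highest and replicate 1 the lowest. Of the scalings tried they came apart only in quantile normalization, which gave a log2 fold change of -0.66 (SE 0.29). It was -1.31 without scaling, -1.28 after 75th percentile scaling and -1.51 after cyclic loess, in each case with shACOT12 replicate 1 set to the floor of 1 before the log2. Raising low values to the 20th percentile left the same value on all arrays for MMP12.

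**Figure D2:**
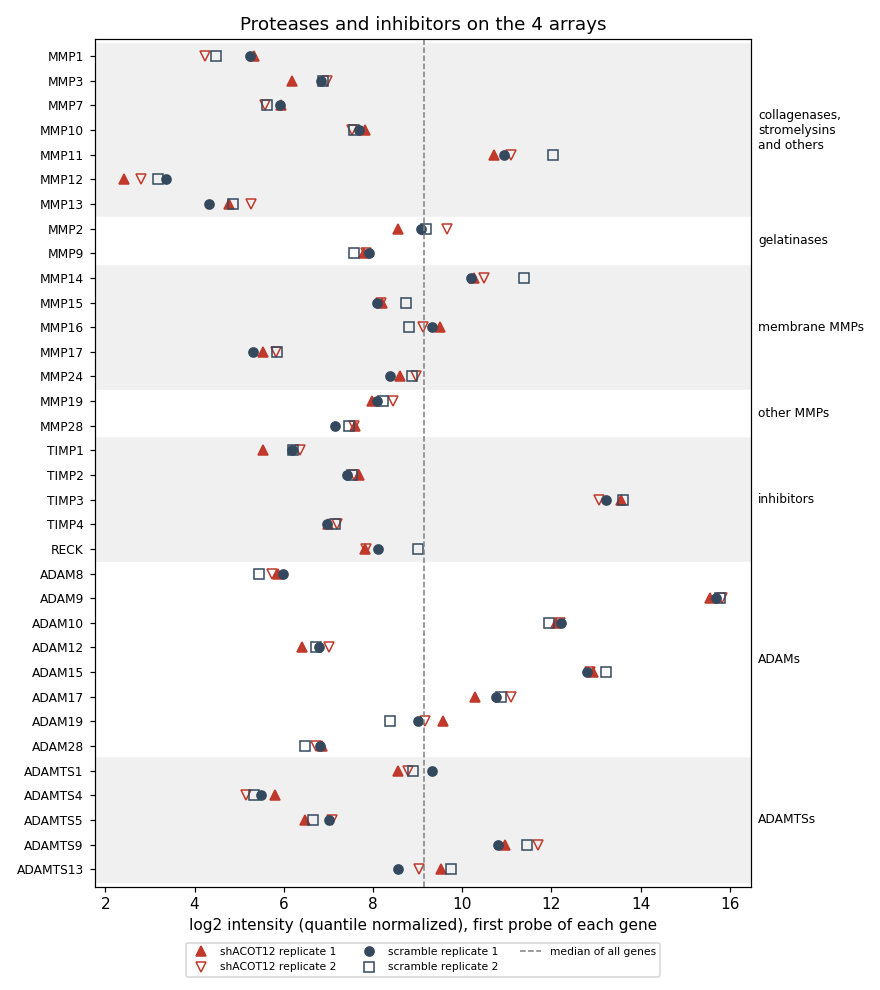
Log2 intensity after quantile normalization (horizontal) of the brightest probe of each gene on the 4 arrays; the dashed line is the median of all genes. The red and dark symbols of a gene lie among each other for most genes, and the open square of scramble replicate 2 stands to the right for MMP11, MMP14, MMP15 and RECK.

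MMP11 encodes stromelysin-3, which is known from the stroma of many carcinomas. Its intensity was 1570.1 and 2259 in shACOT12 cells, against 1908 and 4267 in scramble cells. Scramble replicate 2 alone was high, and scramble replicate 1 lay between the shACOT12 arrays. The log2 means were 10.90 ± 0.26 in shACOT12 and 11.48 ± 0.78 in scramble cells (SD, n = 2 each). The log2 fold change was -0.58 (SE 0.42) and the adjusted p from limma was 1. It was -0.03 without scramble replicate 2 and -1.13 without scramble replicate 1.

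MMP14 encodes the membrane-type protease MT1-MMP, which cuts collagen at the cell surface and activates MMP2. It read 1136 and 1509 in shACOT12 cells, against 1148 and 2754 in scramble cells. Scramble replicate 2 again stood above the other arrays, which lay close together. The log2 means were 10.37 ± 0.15 in shACOT12 and 10.79 ± 0.85 in scramble cells (SD, n = 2 each), which differ by -0.41 (SE 0.43, adjusted p of 1 in limma). Without scramble replicate 2 it was 0.18, so the sign rested on that array, and without scramble replicate 1 it was -1.01.

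MMP15, another membrane-type protease, read 246 and 346 in shACOT12 cells, against 265 and 443 in scramble cells. Here too scramble replicate 2 was the highest array, the log2 fold change was -0.22 (SE 0.32), and without that array it was 0.11. MMP16, the membrane-type MT3-MMP, read 641 and 632 in shACOT12 cells, against 627 and 465 in scramble cells. As deposited its groups did not overlap, though scramble replicate 1 came close to the shACOT12 arrays, and after quantile normalization they did (log2 fold change 0.24, SE 0.32). Its other probes gave 0.20 and -0.0026, and both turned sign when single arrays were left out. MMP17 and MMP24, the remaining membrane-type enzymes, had log2 fold changes of 0.11 and 0.16 (SE 0.32 each). Their second, dimmer probes gave 0.27 and 0.040, and both turned sign when single arrays were left out.

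The gelatinases MMP2 and MMP9 cut denatured collagen and basement membrane collagen. MMP2 read 323 and 897 in shACOT12 cells, against 523 and 608 in scramble cells. The shACOT12 arrays were the lowest and the highest of the 4, and the scramble arrays lay between them. The log2 fold change of MMP2 was -0.01 (SE 0.40), and it was 0.53 without shACOT12 replicate 1 and -0.56 without shACOT12 replicate 2. MMP9 read 182 and 278 in shACOT12 cells, against 237 and 192 in scramble cells. The groups overlapped, with a log2 fold change of 0.08 (SE 0.29). Of the other MMPs, MMP19 stood at 0.06 (SE 0.30). MMP28, also called epilysin, stood at 0.27 (SE 0.28), while its second, dimmer probe gave -1.43 (limma by probe, unadjusted p = 0.046), with intensities of 23.7 and 24.99 in shACOT12 cells, against 54.8 and 42.1 in scramble cells. That value was -0.50 without shACOT12 replicate 2 and -2.37 without shACOT12 replicate 1, so its size rested on single arrays.

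Among the inhibitors, TIMP3, which binds to the matrix and blocks ADAM17 as well as MMPs, read 12048 and 8597 in shACOT12 cells, against 9562 and 12331 in scramble cells. The groups crossed, with 1 high and 1 low array in each. Its log2 mean was 13.31 ± 0.34 in shACOT12 and 13.41 ± 0.26 in scramble cells (SD, n = 2 each), which differ by -0.10 (SE 0.32, 95% confidence interval -0.86 to 0.65, limma adjusted p = 1). TIMP1, a widely induced inhibitor, read 35.0 and 107 in shACOT12 cells, against 74.4 and 70.5 in scramble cells, which overlapped. TIMP2, which also takes part in the activation of MMP2 by MMP14, read 169 and 232 in shACOT12 cells, against 168 and 185 in scramble cells. These values overlapped as deposited. After quantile normalization the groups of TIMP2 did not overlap, with a log2 fold change of 0.16 (SE 0.27). TIMP1 and TIMP4 stood at -0.25 and 0.03 (SE 0.35 and 0.28).

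RECK had the lowest log2 fold change of the 34, at -0.73 (SE 0.37, 95% confidence interval -1.60 to 0.15, limma unadjusted p = 0.0897, adjusted p = 1). It read 186 and 279 in shACOT12 cells, against 267 and 539 in scramble cells. Scramble replicate 2 was high and the other arrays lay together, as for MMP11 and MMP14. The value was -0.27 without scramble replicate 2 and -1.18 without scramble replicate 1. The groups of RECK overlapped as deposited, between 279 on shACOT12 replicate 2 and 267 on scramble replicate 1, and did not after any of the scalings tried.

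**Figure D3:**
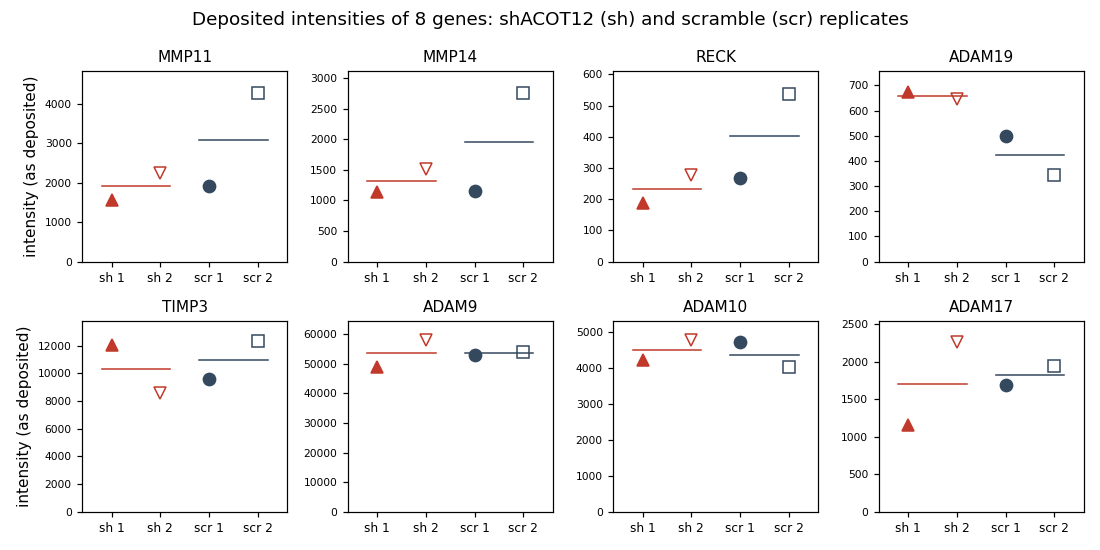
Deposited intensity (vertical, from 0) of 8 genes on the shACOT12 arrays (red, sh) and the scramble arrays (dark, scr), with a line at the mean of each group (n = 2). Scramble replicate 2 is the highest array for MMP11, MMP14 and RECK, and ADAM19 is the only 1 of the 8 whose groups do not overlap.

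The ADAMs with a probe at or above the median of all genes were ADAM9, ADAM10, ADAM15 and ADAM17. ADAM10 and ADAM17 are the main sheddases of Notch receptors, cytokines and ligands of the EGF receptor. ADAM10 read 4223 and 4784 in shACOT12 cells, against 4717 and 4018 in scramble cells. ADAM17 read 1161 and 2258 in shACOT12 cells, against 1691 and 1948 in scramble cells. The arrays of ADAM10 lay close together, while the shACOT12 arrays of ADAM17 enclosed both scramble arrays. ADAM10 averaged 12.15 ± 0.08 in shACOT12 and 12.08 ± 0.19 in scramble cells on the log2 scale (SD, n = 2 each), which differ by 0.07 (SE 0.28, 95% confidence interval -0.60 to 0.74, limma adjusted p = 1). The interval of ADAM17 was -0.95 to 0.71 around -0.12 (SE 0.35). Both intervals lay within a 2-fold difference.

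ADAM9 encodes a widely expressed ADAM known from liver cancer for the shedding of the immune ligand MICA. It was read by 3 probes. The brightest gave 49072 and 58181 in shACOT12 cells, against 53009.5 and 54098 in scramble cells, with the scramble arrays between the shACOT12 arrays and a log2 fold change of -0.04 (SE 0.28). The second gave 1029 and 1499 in shACOT12 cells, against 1424 and 3473 in scramble cells. On this probe scramble replicate 2 stood above the others, the log2 fold change was -0.81 (SE 0.44), and it was -0.20 without that array. The third probe gave -0.47 (SE 0.32). No probe of ADAM9 passed at an unadjusted p under 0.05, and which transcripts each probe reads is not given in the files.

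ADAM15 read 7709 and 7484 in shACOT12 cells, against 7061 and 9597 in scramble cells, which overlapped (log2 fold change -0.12, SE 0.29). ADAM19, a membrane protease known to cut neuregulins, had the highest log2 fold change of the 34, at 0.67 (SE 0.34, 95% confidence interval -0.13 to 1.47, limma unadjusted p = 0.089, adjusted p = 1). It read 673 and 646 in shACOT12 cells, against 500.0 and 344 in scramble cells. Both shACOT12 arrays were above both scramble arrays, as deposited and after each scaling tried. Without 1 array the value ran from 0.36 (without scramble replicate 2) to 0.97 (without scramble replicate 1). ADAM8, ADAM12 and ADAM28 were dim, with log2 fold changes of 0.09, -0.03 and 0.14 (SE 0.31, 0.32 and 0.29). Their further probes were dimmer still and gave 0.73 for ADAM12 and -0.89 and 0.28 for ADAM28. Single arrays set these values as well: ADAM12 stood at 0.073 without scramble replicate 2 and at 1.38 without scramble replicate 1. Those of ADAM28 turned to 0.11 without shACOT12 replicate 2 and to -0.50 without shACOT12 replicate 1.

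Of the ADAMTS genes, ADAMTS9 and ADAMTS13 had a probe at or above the median. ADAMTS9, a protease of large proteoglycans, read 1852 and 3409.9 in shACOT12 cells, against 1754 and 2869 in scramble cells. The arrays numbered 1 were low and those numbered 2 high in both groups, and the log2 fold change was 0.20 (SE 0.38). ADAMTS13, which cuts von Willebrand factor and is made mainly in the liver, read 656 and 602 in shACOT12 cells, against 369.9 and 882 in scramble cells. The scramble arrays enclosed the shACOT12 arrays, with a log2 fold change of 0.13 (SE 0.44) and 0.59 from a second, dimmer probe. Leaving out 1 array moved the first probe of ADAMTS13 between -0.46 and 0.72 and the second between -0.56 and 1.74.

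ADAMTS1 and ADAMTS5 are proteoglycan-cutting enzymes whose genes lie next to each other on chromosome 21. ADAMTS1 read 321 and 508 in shACOT12 cells, against 625 and 495 in scramble cells, so the groups overlapped as deposited and not after quantile normalization (log2 fold change -0.44, SE 0.30). The value was -0.23 without scramble replicate 1 and -0.65 without scramble replicate 2. ADAMTS5 stood at -0.06 (SE 0.33), with 0.50 from its second, dimmer probe, which gave 0.011 without scramble replicate 2 and 1.00 without scramble replicate 1. ADAMTS4, another such enzyme, stood at 0.08 (SE 0.33).

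Across the 34 genes, the groups did not overlap for 6 after quantile normalization, or 17.6%, against 21.5% of all genes. These were MMP12, MMP28, TIMP2, RECK, ADAM19 and ADAMTS1, all below the median of all genes. None of the 10 genes at or above the median did so, against 24.2% of all such genes. With values as deposited the count was 2, MMP16 and ADAM19, against 19.2% of all genes. It was 2 with 75th percentile scaling, against 19.7%, and 5 with cyclic loess, against 21.7%. ADAM19 was the only 1 of the 34 to do so under all 4 scalings. The share of all genes that did so under all 4 was not counted, so this does not set ADAM19 apart.

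Single arrays set several of these values. For 5 of the 10 genes at or above the median, scramble replicate 2 was the array farthest from the median of the 4, as it was for 41.8% of all genes at that level. Over these 10 genes the SD of the log2 difference between 2 arrays was 0.464 between the shACOT12 arrays and 0.603 between the scramble arrays. Scramble replicate 1 stood closer to both shACOT12 arrays, at 0.381 and 0.326, than these did to each other. Scramble replicate 2 differed from the shACOT12 arrays by 0.583 and 0.511. Over all 34 genes, scramble replicate 2 and shACOT12 replicate 1 were each the farthest array for 11, or 32.4%. Over all genes it was scramble replicate 2 for 30.1%, shACOT12 replicate 2 for 28.6% and shACOT12 replicate 1 for 24.9%. The lowest correlation over all genes was between the shACOT12 arrays, at 0.979. The cause of the difference between the scramble arrays was not tested.

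**Figure D4:**
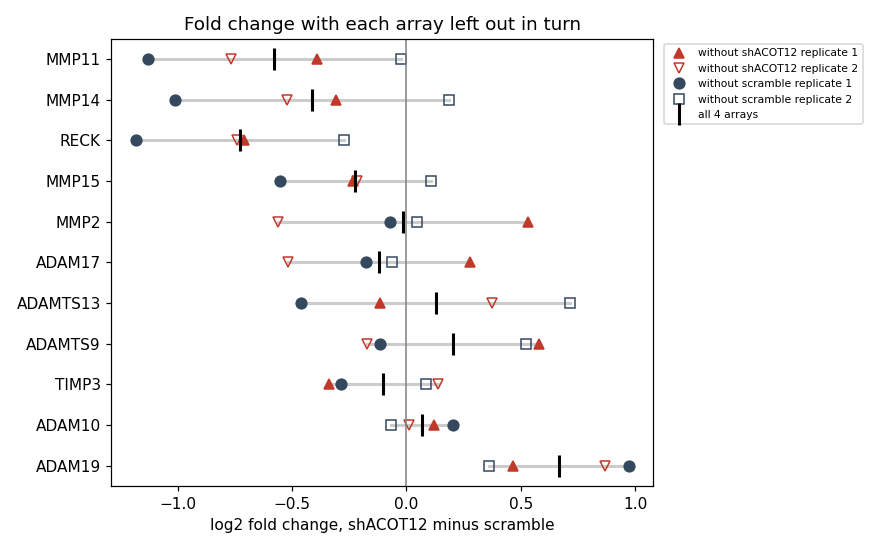
Log2 fold change (horizontal) of 11 genes with all 4 arrays (black bar) and with each array left out. The dark symbols of MMP11, MMP14 and RECK lie far apart, from -1.18 for RECK without scramble replicate 1 to 0.18 for MMP14 without scramble replicate 2, while ADAM10 moved between -0.07 and 0.20.

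Other genes of the same families and of their activation, regulation and substrates were set beside the 34, 109 measured genes in all. Limma's fit called 0 of the 109 at an adjusted p under 0.05. It put 4 of the 109 at an unadjusted p under 0.05, against 336 of all 19090 genes (1.76%). Of the 109, 52 (47.7%) had a log2 fold change above 0, against 51.4% of all genes. The median over the 109 was -0.013. The 7 other MMPs were all below the median level, and 5 of them had a value above 0, which is what higher stands for in these counts. Of 12 other ADAMs, 5 were higher, with ADAM22 at -0.47 (SE 0.43) and ADAM23 at 0.0073 (SE 0.37), both ADAMs that lack protease activity. Of 13 other ADAMTS genes 6 were higher, with ADAMTS6 at -0.24 (SE 0.48) and ADAMTS17 at 0.05 (SE 0.35). Of 6 ADAMTS-like genes 4 were higher, with ADAMTSL4 at 0.14 (SE 0.40).

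Among 11 activators and plasmin system genes, 6 had a log2 fold change above 0. FURIN, the convertase that activates membrane-type MMPs and ADAMs, stood at 0.37 (SE 0.30) and its relative PCSK6 at 0.20 (SE 0.28). PLAU, which encodes the urokinase that starts plasmin formation, was named after its value was seen. It read 106 and 118 in shACOT12 cells, against 183 and 231 in scramble cells, a log2 fold change of -0.90 (SE 0.32, limma unadjusted p = 0.0261, adjusted p = 1). Both shACOT12 arrays were below both scramble arrays, at intensities under the array medians. Of the 9 regulators of ADAM10 and ADAM17, 5 were higher, with the tetraspanin gene TSPAN10 at -0.49 (SE 0.30) and RHBDF1, which encodes the ADAM17 partner iRhom1, at 0.21 (SE 0.27).

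Of 19 genes for proteins shed from the cell surface, 9 were higher. SDC4, a cell surface proteoglycan, read 620 and 683 in shACOT12 cells, against 909 and 1328 in scramble cells, a log2 fold change of -0.75 (SE 0.31, limma unadjusted p = 0.0443, adjusted p = 1). L1CAM, an adhesion molecule cut by ADAM10, stood at -0.66 (SE 0.34). Of 15 matrix substrates, 3 were higher and 12 lower, or 20% higher against 51.4% of all genes. Their median was -0.10, with 0 past the threshold. VCAN, which encodes the proteoglycan versican that ADAMTS proteases cut, stood at 0.76 (SE 0.42) and SPP1, which encodes osteopontin, at -0.70 (SE 0.33). Of 17 transcription factors known from MMP promoters, among them the AP-1 genes, 9 were higher, with TWIST2 at 0.96 (SE 0.35, limma unadjusted p = 0.0291, adjusted p = 1) and ETV4 at -0.54 (SE 0.36). The remaining gene at an unadjusted p under 0.05 was MMP20, the enamel MMP of the chromosome 11 block, at 0.87 (SE 0.30), with intensities of 20.3 and 60.0 in shACOT12 cells, against 26.4 and 15.6 in scramble cells, which overlapped as deposited.

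**Figure D5:**
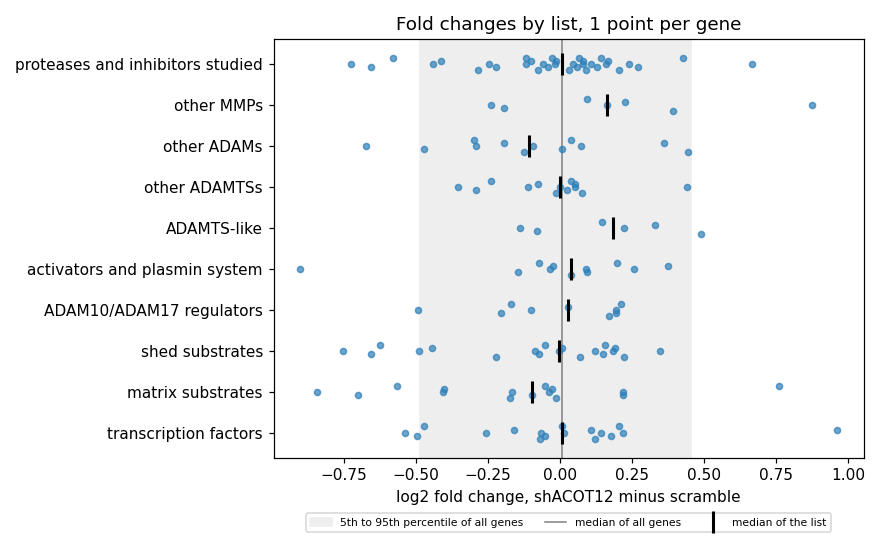
Log2 fold change (horizontal) of the 34 proteases and inhibitors and of 9 lists of related genes, 1 point per gene, with the median of each list (black) over the 5th to 95th percentile of all genes (grey, -0.49 to 0.45). The medians of the lists lie between -0.11 and 0.18.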

How the data were processed

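Total RNA of the 4 samples was amplified to aminoallyl RNA and coupled to Cy5, per the labels' protocols. The values used were the linear intensities the authors deposited; how they were scanned, background corrected or scaled is not given in the sources used here. Values under 1 were set to 1 and converted to log2, and the arrays, whose log2 medians differed by 0.462, were quantile normalized. Of 28264 probes, 25893 had a gene symbol in the platform's annotation, and all were matched by gene identifier to RefSeq. A gene was read by its probe with the highest mean. The comparison of shACOT12 with scramble used limma 3.58.1 (R 4.3.3; lmFit, eBayes, Benjamini-Hochberg over 19090 genes, threshold 0.05), and the fit was tested on simulated data. Processing and tests followed the earlier work on these arrays, and the members and lists were chosen with its results known. Values on every array are given for members at or above the median of all genes and for MMP2, MMP9 and TIMP1 to TIMP3; those of other members were added after they were seen. From the other lists, the 2 genes with the largest change at or above the median are named. Of the lists, 7 genes had no named probe here and were not used. No probe coordinates are given because the platform's build was not named. Alternatives covered the scaling, the prior, the replicate block, the floor, dim genes, the choice of probe and leaving out each array.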

Additional observations from a re-analysis of the deposited data

How the results depend on the processing

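Of the 34 genes, 0 passed an adjusted p of 0.05 under all 14 alternatives, and limma put at most 3 of them at an unadjusted p under 0.05: MMP11, MMP14 and RECK without scramble replicate 1. In that fit 543 of 19090 genes did so, against 336 with all arrays, and the scramble group is 1 array assumed to vary like the shACOT12 group. The count of genes with a log2 fold change above 0 stayed within 15 to 21 of 34 and was 24 of 46 by probe, and 11 of 21 with the dimmest 30% of genes left out, where fewer genes were counted. Their median stayed between -0.068 and 0.091. With the replicate block, limma gave 0 of the 34 past the threshold, 17 higher and a median of 0.0079; it put 25 of all genes past the threshold, against 1 without it, and RECK at an unadjusted p of 0.0457. Same-numbered arrays deviated from their group means with a correlation of 0.183 across genes and 0.280 across genes at or above the median. The labels name no shared batch, and 2 pairs cannot decide whether the numbers pair the samples. The sign turned for MMP1 without scaling (0.21), after 75th percentile scaling (0.24) and after cyclic loess (0.093). It turned for MMP7 without scaling (0.070) and after 75th percentile scaling (0.099), and for ADAM9 after 75th percentile scaling (0.026). It turned for TIMP1 with the floor at the 20th percentile (0.096), where 6 genes lay at the floor on all arrays and had no value. When all probes of a gene were averaged it turned for MMP28 (-0.58), ADAM12 (0.35), ADAM28 (-0.16) and ADAMTS5 (0.22). The causes were not tested.

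Leaving out each array in turn turned the sign of 26 genes, none of them past the threshold. The log2 fold changes ran from -0.62 to 0.46 for MMP1, -0.67 to 0.11 for MMP3, -0.20 to 0.16 for MMP7, -0.11 to 0.19 for MMP10, -0.56 to 0.53 for MMP2 and -0.095 to 0.25 for MMP9. They ran from -1.01 to 0.18 for MMP14, -0.55 to 0.11 for MMP15, -0.020 to 0.50 for MMP16, -0.17 to 0.38 for MMP17, -0.083 to 0.41 for MMP24 and -0.18 to 0.30 for MMP19. For the inhibitors they were -0.65 to 0.16 for TIMP1, -0.34 to 0.14 for TIMP3 and -0.072 to 0.13 for TIMP4. For the ADAMs they were -0.17 to 0.35 for ADAM8, -0.17 to 0.083 for ADAM9, -0.069 to 0.20 for ADAM10, -0.33 to 0.27 for ADAM12, -0.33 to 0.095 for ADAM15, -0.52 to 0.28 for ADAM17 and -0.030 to 0.31 for ADAM28. For the ADAMTS genes they were -0.25 to 0.41 for ADAMTS4, -0.36 to 0.25 for ADAMTS5, -0.17 to 0.58 for ADAMTS9 and -0.46 to 0.72 for ADAMTS13. For the genes whose sign held they were -0.85 to -0.47 for MMP12, 0.16 to 0.70 for MMP13 and 0.11 to 0.43 for MMP28. They were 0.099 to 0.22 for TIMP2 and -0.65 to -0.23 for ADAMTS1. The sign also held for MMP11 (-1.13 to -0.025), RECK (-1.18 to -0.27) and ADAM19 (0.36 to 0.97). Detection flags were not used, so a dim probe was not marked as undetected.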
